A study of Mus musculus with 22 samples.

Results

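Mouse astrocytes in which EtOH had raised the intracellular calcium signal were compared with astrocytes in the same kind of culture in which it had not. Every cell of the 3 responding classes was taken as a responder, so that 17 responders (6 S-type cells, 6 of the T-type and 5 of the M-type) stood against 5 NR cells, and together these were all 22 cells of the series. The study calls a sustained calcium signal S-type, a transient signal T-type and a complex signal M-type, and NR is used here for the cells labelled as giving no response. All 22 cells were primary cortical astrocytes of C57BL/6 mice taken at postnatal day 0 to 1, grown in cultures each made from a single pup, which had been shaken, treated with cytosine arabinoside and kept without serum for the last 24 h. All had been loaded with the calcium dye Fluo-4 and exposed to EtOH before each was drawn into a micropipette, so the NR cells were exposed too, and an unexposed cell does not enter the comparison. The labels name neither the pup nor the culture of a cell, nor the time at which it was collected. Each arm was therefore treated as 1 sample, and no test was run between arms.

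Astrocytes are not electrically excitable, and calcium is their main rapid signal. In the best known route a ligand binds a receptor coupled to Gq, phospholipase C makes InsP3, InsP3 receptors release calcium from the endoplasmic reticulum, and store-operated channels refill it while pumps and mitochondria take calcium away. Astrocytes of the newborn cortex still divide, and they change many genes at once when they become reactive. Cultures of this kind can also hold microglia, cells of the oligodendrocyte lineage, fibroblasts and neurons, whose marker genes were followed beside those of astrocytes.

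A cell had between 2937786 and 22131076 reads in genes among the responders and between 15057892 and 19930655 among the NR cells, and the smallest libraries were T-type. Between 6319 and 12188 genes had a read in a responder and between 9696 and 13070 in an NR cell. At an equal depth of 2937786 reads per cell these ranges were 5219 to 11125 and 8191 to 12028. Levels below are normalised read counts, that is counts divided by the median-of-ratios size factor of the cell, and the level of an arm is the mean over its cells. The size factor of T-type cell 2 was 0.276 although it had 12564138 reads, so its levels were scaled up more than those of most cells. All 22 cells had reads of the astrocyte genes Gfap, Slc1a2, Slc1a3, Aqp4 and Vim. Slc1a3 and Vim were at 867 or more in every cell, but some cells had very few reads of the others. For example, T-type cell 2 was at 7.25 for Slc1a2 and for Aqp4, and T-type cell 5 at 1.3 for Gfap. No pair of cells had identical counts.

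Of the 12719 genes read in at least 5 cells, 3579 (28.1%) had a level at least 2-fold higher in responders and 2292 (18%) a level at least 2-fold lower. A level that was higher by any margin was found for 7261 genes (57.1%) and a lower one for 5458 (42.9%), and the median log2 ratio of all these genes was 0.22. Against the same 5 NR cells S-type cells alone had 25.1% of the genes 2-fold higher and 22.4% lower, T-type cells 28.6% and 32.4%, and M-type cells 19.8% and 28.1%. The balance of directions depended on which genes entered and on how cells were averaged. With every gene read in any cell, the median log2 ratio was 0.02. When the median over cells replaced the mean for the 12719 genes, 1982 (15.6%) lay 2-fold higher and 3306 (26%) 2-fold lower. The median difference of all these genes was then -0.07. Few genes were 2-fold apart by the mean and by the median alike, namely 1282 (10.1%) in the higher and 1443 (11.3%) in the lower direction. Among the genes 2-fold higher by the mean, 1562 (43.6%) had most of the responder level in 1 cell. Among those 2-fold lower, 1777 (77.5%) had most of the NR level in 1 cell. Whichever cell was left out, 1917 of the higher genes (53.6%) and 640 of the lower genes (27.9%) kept a 2-fold difference, and with both requirements together 908 (7.14%) and 535 (4.21%) were left.

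**Figure D1:**
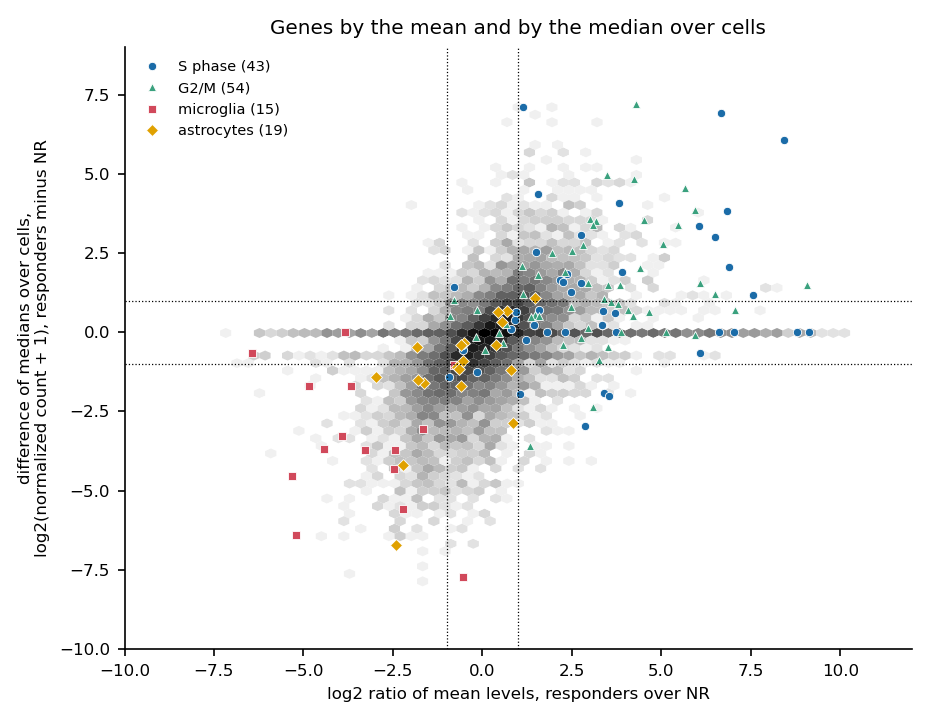
Each of 12719 genes is placed by the log2 ratio of the mean levels of responders over NR cells (x axis) and by the difference of the medians over cells on the log2(normalized count + 1) scale (y axis), with darker hexagons for more genes on a log scale and dotted lines at 2-fold. Marked are the kept members of the S phase, G2/M, microglia and astrocyte lists, and the dark row at 0 on the y axis holds genes whose medians were equal while their means were not.

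No gene had every responder above every NR cell, and 2 genes (0.0157%) had every responder below every NR cell. The first was Pcnxl4 (current symbol Pcnx4, chr12:72536383-72580119 of GRCm38), which codes for a membrane protein of the pecanex family. Its normalised read counts in NR cells 1 to 5 were 1654, 577, 1276, 801 and 2413, while the responders ran from 0 through a median of 83.8 to 489.7. Thus the highest responder, S-type cell 3, stayed under the lowest NR cell, and 3 responders had no read. The mean level was 9.52-fold lower in responders (log2 ratio -3.25, 95% counting interval -3.31 to -3.20), and it lay between -3.49 and -2.93 when any 1 cell was left out. S-type cells averaged 134, T-type cells 63.1 and M-type cells 244, against 1344 in NR.

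The other gene was Gm16516 (current symbol Map2k3os, chr11:60920917-60931867), an antisense RNA whose reads cannot be told from those of an overlapping gene where counting ignores the strand. Its NR values were 161.5, 45.9, 16.5, 16.7 and 100.1, and the responders ran from 0 through 1.75 to 12.5. The gap was narrow, since 2 NR cells lay just above the highest responder. The mean level was 18.1-fold lower (log2 ratio -4.18, counting interval -4.50 to -3.86), with -4.43 to -3.57 over the leave-outs, and it rested on 97 responder and 506 NR reads.

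Beyond these, among genes with a mean level of 10 or more, the difference of medians was largest in the lower direction for Col9a1, Fam196b, Slc14a1, Zfp715, Cidea and Grb14. Col9a1 codes for a chain of type IX collagen, and its NR values were 453, 931, 23.7, 44.3 and 1227 against 0, 0 and 396 as the lowest, median and highest responder. All 5 NR cells had reads and 15 of the 17 responders lay below the lowest of them, and S-type cells 4 and 6 held most of the responder reads. Grb14, an adaptor that restrains insulin receptor signalling, had 111, 82.2, 1014, 709 and 2433 in NR cells against 0, 1.28 and 530.1 in responders, and 13 responders lay below the lowest NR cell. The log2 ratios were -3.96 for Col9a1 and -3.27 for Grb14, and they stayed at or under -3.40 and -2.41 when any 1 cell was left out. Slc14a1, a urea transporter, had 388, 406 and 877 in NR cells 1 to 3 and no read in the other 2, so its arms overlapped. Among responders its reads were nearly all in M-type cell 2, which held 96.3% of the responder level. The log2 ratio of Zfp715, a zinc finger gene, was -3.00 and that of Fam196b -3.96, and each had no read in 1 NR cell. M-type cell 2 held 97.9% of the Fam196b responder level, and without it the ratio was -9.44. For Cidea, a protein of lipid droplets, the ratio was -1.79, and T-type cell 1 had 1579, above all NR cells.

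In the higher direction the same rule gave Flrt2, Fam83d, Lin54, Mcm3, Akap17b and Mto1. Mto1, an enzyme that modifies mitochondrial transfer RNA, was read in all 17 responders, with 3.63, 436 and 3719 as lowest, median and highest, and its NR values were 44.9, 1.13, 2.88, 0 and 0. In 14 responders the level lay above the highest NR cell, and the log2 ratio was 6.58, between 6.26 and 9.87 over the leave-outs. It also belongs to the genes that the study chose on these cells, so this is no independent support for its direction. Lin54, the subunit of the MuvB complex that binds cell cycle gene promoters, had 0, 157, 0, 0 and 0.927 in NR cells and 0, 253 and 2723 in responders. Nearly its whole NR level (99.4%) came from NR cell 2, and the log2 ratio of 4.10 became 11.19 without that cell. Flrt2, a cell adhesion protein with leucine-rich repeats, was read in all 17 responders and in 3 NR cells, but NR cells 2 and 3 had 799 and 573, above the responder median of 457. Its mean level was therefore only 1.78-fold higher (log2 ratio 0.83) although its medians differed by 8.16 on the log2 scale. Akap17b, which anchors protein kinase A, had 647 in NR cell 2 and at most 1.44 in the other NR cells against a responder median of 217.

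**Figure D2:**
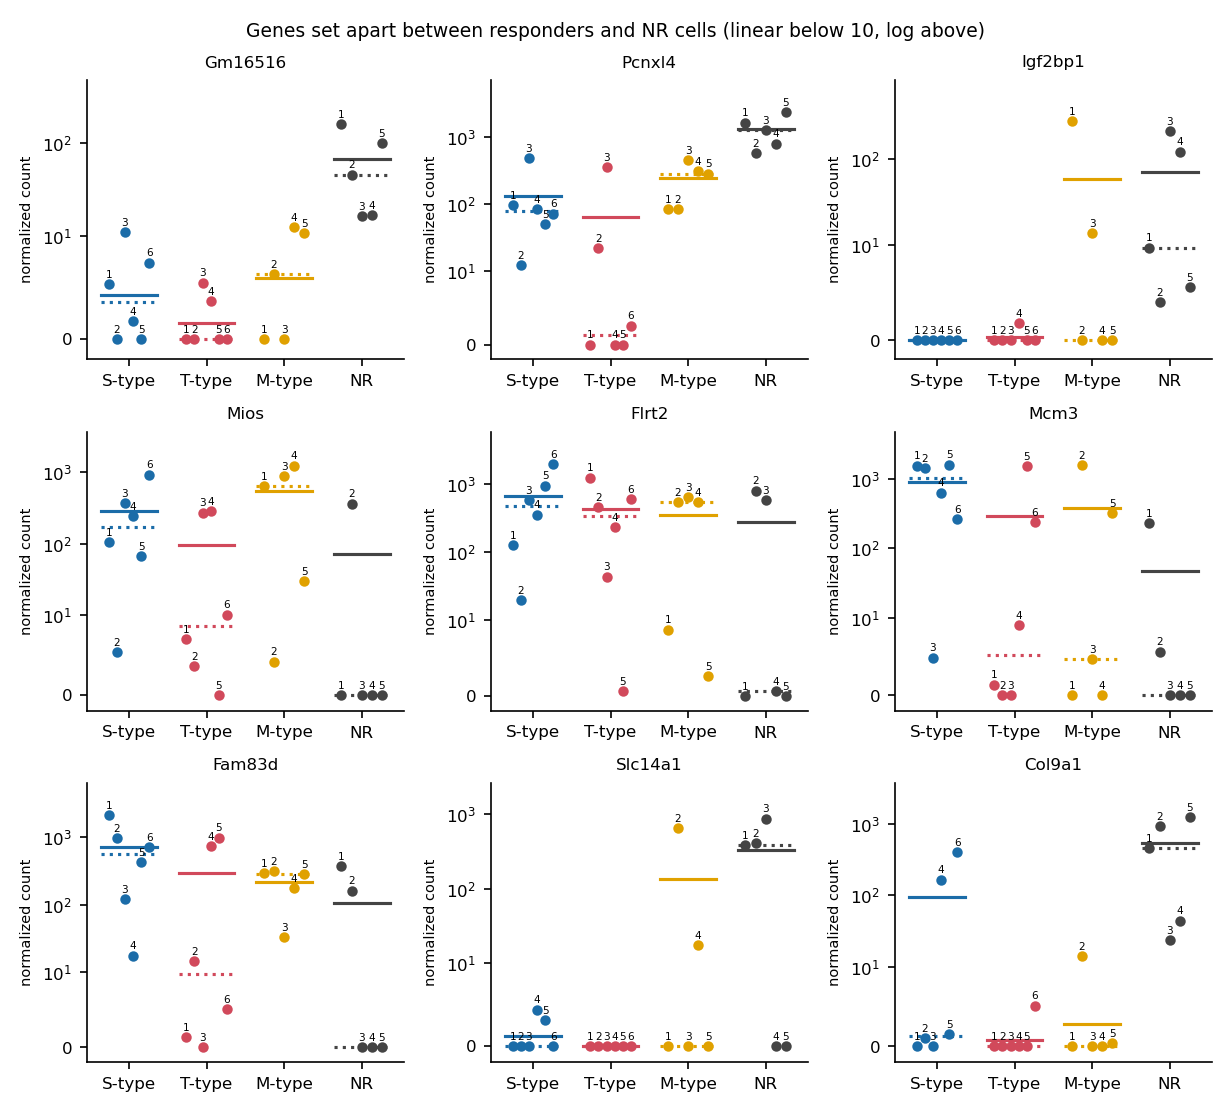
Normalised read count (y axis, linear below 10 and logarithmic above) of 9 genes in each cell of the 3 responding classes and of NR, with 1 point per cell, the replicate number beside it, a solid line at the mean and a dotted line at the median of the class. For Pcnxl4 and Gm16516 every responder lies below every NR cell, whereas for Mios, Flrt2 and Mcm3 the NR cells divide into cells near 0 and cells at responder levels.

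Detection gave 1 gene in each direction. Mios was read in 16 responders and 1 NR cell (0.00786% of genes met this rule). It codes for a subunit of the GATOR2 complex, which passes amino acid supply on to mTORC1. NR cell 2 had 362 and the other NR cells 0, while the responders ran from 0 through 106 to 1228. At equal depth 15 responders and 1 NR cell had a read. Igf2bp1 was read in all 5 NR cells and in 3 responders (0.00786%). It codes for a protein that binds Igf2 and other messenger RNAs. Its NR values were 9.71, 3.97, 213, 121 and 5.56, and 15 responders lay below the lowest of them. M-type cell 1 had 277, above every NR cell. In 3 NR cells, however, the value was under 10, and at equal depth 4 NR cells and 2 responders had a read. The log2 ratio of Mios was 2.04, between 1.71 and 9.16 (without NR cell 2) over the leave-outs. That of Igf2bp1 was -2.04, between -6.20 without M-type cell 1 and -1.03 without NR cell 3.

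Next in detection were Srgn, Gpr176 and Ctxn2 in the lower and Siah2, Gm20324 and Ifit1 in the higher direction. Srgn, the proteoglycan serglycin of blood-derived cells, was read in 5 NR cells and 4 responders, and 85.5% of its NR level came from NR cell 2. Gpr176, an orphan receptor, had 1706 and 2433 in NR cells 3 and 5 and at most 34.7 in any responder. Ctxn2 had 1015 in NR cell 3 and at most 8.51 in the other NR cells, and without NR cell 3 its log2 ratio turned from -4.28 to 1.99. Siah2, a ubiquitin ligase, had a read in 15 responders and in NR cell 2 alone among NR cells. Gm20324 and the interferon-induced Ifit1 were each read in 11 responders and in no NR cell, which makes their ratios lower bounds. Their levels of 65.8 and 46 in responders were at least 7.37 and 6.86 higher on the log2 scale than the limit set by 3 reads over the NR cells. Of the 12719 genes, 138 had no read in NR cells and none lacked a read in responders, which were the larger arm. This split follows in part from the requirement of a read in at least 5 cells. A gene without a responder read could enter only with a read in all 5 NR cells, whereas one without an NR read needed 5 of the 17 responders.

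The genes just named include several of the cell division cycle. Fam83d, a protein of the mitotic spindle, had 372, 161.1, 0, 0 and 0 in NR cells and 0, 281 and 2085 in responders (log2 ratio 1.98). Mcm3, a subunit of the helicase that opens DNA for replication, had 231, 5.67, 0, 0 and 0 in NR cells and 0, 236 and 1592 in responders (log2 ratio 3.51, at least 3.18 without any 1 cell). Promoters of genes used in S phase often carry E2F sites, and those used in mitosis often carry the CHR element that the complex of Lin54 binds. The promoters of Mcm3, Fam83d and Top2a, from 250 bases before to 50 after the start in RefSeq on GRCm38.p6, are given below with these motifs in capitals, beside that of Pcnxl4, the protein-coding gene that set the arms apart and that holds neither motif. The letters searched on either strand were TTTCCCGC, TTTCGCGC, TTTGCCGC and TTTGGCGC for E2F and TTTGAA for CHR.
Mcm3: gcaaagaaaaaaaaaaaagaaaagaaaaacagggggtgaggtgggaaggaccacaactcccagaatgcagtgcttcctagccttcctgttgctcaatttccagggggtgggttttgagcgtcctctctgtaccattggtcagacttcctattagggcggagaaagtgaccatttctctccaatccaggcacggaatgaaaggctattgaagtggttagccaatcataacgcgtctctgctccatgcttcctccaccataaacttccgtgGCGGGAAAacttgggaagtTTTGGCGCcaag
Fam83d: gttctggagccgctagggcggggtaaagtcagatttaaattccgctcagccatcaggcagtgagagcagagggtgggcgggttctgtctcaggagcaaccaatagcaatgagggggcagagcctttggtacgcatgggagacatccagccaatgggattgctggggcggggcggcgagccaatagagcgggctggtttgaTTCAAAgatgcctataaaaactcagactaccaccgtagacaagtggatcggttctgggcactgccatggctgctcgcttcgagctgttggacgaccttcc
Top2a: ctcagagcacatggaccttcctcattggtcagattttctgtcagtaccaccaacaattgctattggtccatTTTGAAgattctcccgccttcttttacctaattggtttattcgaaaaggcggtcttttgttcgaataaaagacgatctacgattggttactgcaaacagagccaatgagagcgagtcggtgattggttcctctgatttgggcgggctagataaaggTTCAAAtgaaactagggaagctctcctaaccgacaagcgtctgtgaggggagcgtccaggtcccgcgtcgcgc
Pcnxl4: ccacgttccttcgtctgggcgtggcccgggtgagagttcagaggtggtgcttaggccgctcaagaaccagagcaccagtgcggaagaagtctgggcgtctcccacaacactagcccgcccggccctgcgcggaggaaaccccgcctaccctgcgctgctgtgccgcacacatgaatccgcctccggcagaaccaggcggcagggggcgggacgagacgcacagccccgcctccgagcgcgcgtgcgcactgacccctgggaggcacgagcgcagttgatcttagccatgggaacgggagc
The promoters lie at chr1:20820263-20820562 on the minus strand for Mcm3, chr2:158767849-158768148 on the plus strand for Fam83d, chr11:99024140-99024439 on the minus strand for Top2a and chr12:72536107-72536406 on the plus strand for Pcnxl4. That of Mcm3 holds 2 E2F motifs, that of Fam83d 1 CHR motif and that of Top2a 2. An E2F motif was present in 11 of the 31 S phase promoters found in RefSeq (35.5%) against 2.32% of all 27025 promoters. A CHR motif was present in 32 of 48 G2/M promoters (66.7%) against 18.1% of all. Of the 1033 promoters of genes 2-fold higher by mean and median 6.49% held an E2F and 14.6% a CHR motif, and of the 1142 of genes 2-fold lower 2.89% and 11.6% did. These genes were drawn from those read in at least 5 cells, of whose 10136 promoters 4.23% held an E2F and 11.7% a CHR motif. A match describes the letters in this window and not a bound site.

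Apart from the genes that the study chose on these cells, the S phase and G2/M lists had the highest median ratios among the lists with more than 2 kept genes. Of 43 genes of S phase 39 were higher in responders, where 57.1% of all genes were. At least 2-fold higher were 36 (83.7%), against 28.1% of all genes, with a median log2 ratio of 2.76 against 0.22 for all genes. Of 54 genes of G2/M 50 were higher and 46 (85.2%) at least 2-fold, with a median of 3.13. By mean and median alike 18 (41.9%) and 26 (48.1%) members were 2-fold higher, against 10.1% of all genes, and none was 2-fold lower. By the median over cells alone, however, the list medians were only 0.64 for S phase and 0.99 for G2/M, against -0.07 for all genes. By that measure 6 S phase and 2 G2/M members lay 2-fold lower, and the difference was carried by part of the responders. The summed G2/M level lay between 14927 and 28804 in NR cells and between 15472 and 373220 in responders, 9 of which exceeded every NR cell. In T-type cell 2, 1 of these 9, the tubulin gene Tubb4b had 95772 of the sum of 111620. The summed S phase level lay between 6040 and 15075 in NR cells and between 4205 and 201170 in responders, with 8 above every NR cell. S-type cell 2, T-type cell 5 and S-type cell 1 stood highest for S phase, and S-type cell 1, S-type cell 2 and T-type cell 1 for G2/M. In T-type cell 1, however, Cbx5 (86975) and Tubb4b (58486) made up most of the G2/M sum of 197740. Its Top2a and Mki67 were at 49.3 and 39.4, against 27257 and 5702 in S-type cell 1. Without S-type cells 1 and 2 and T-type cells 1 and 5 the S phase median was 1.16 and the G2/M median 0.80. Against the same 5 NR cells S-type cells alone gave an S phase median of 3.48, T-type cells of 1.68 and M-type cells of 0.65, and the G2/M medians were 4.32, 0.34 and 0.36 in that order.

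Many single members were highest in S-type cell 1, S-type cell 2 or T-type cell 5. Top2a, the topoisomerase that untangles chromosomes, had 0, 727, 0, 13.8 and 0 in NR cells and 0, 148 and 27257 in responders. S-type cell 1 alone held 54.9% of its responder level, and the log2 ratio of 4.30 lay between 3.24 and 9.73 over the leave-outs. Mki67, the marker of dividing cells, was read in 10 responders and 2 NR cells, and S-type cell 2 held 73.4% of its responder level. Rrm2, a subunit of ribonucleotide reductase, had a responder median of 31 and a highest value of 22278, with 153.7 as the highest NR value. Usp1, a deubiquitinase of DNA repair, had a ratio of 0.93. Pcna, the sliding clamp of DNA polymerase, differed less (log2 ratio 1.44), and its NR values of 542 to 6120 spanned the responder median of 2915. Pola1, a subunit of the polymerase that starts replication, had at most 7.37 in NR cells and a responder median of 105, with 11 responders above all NR cells. Tyms, which makes thymidylate, had 0.719 to 115 in NR cells and up to 3990 in T-type cell 5. Cks2, a partner of cyclin-dependent kinases, was read in 16 responders and 4 NR cells with a log2 ratio of 4.51. Some members were spread more evenly over cells. Anp32e, a chaperone that removes the histone variant H2A.Z, had 1033, 2555, 2472, 441 and 262 in NR cells and 1922, 6164 and 20640 in responders. Thus 14 of 17 responders lay above all NR cells, no responder lay below any but NR cells 2 and 3, and the log2 ratio of 2.50 stayed between 2.24 and 2.87 over the leave-outs. Tmpo, a protein of the nuclear lamina, had a log2 ratio of 2.29 (2.05 to 2.99) and 6 responders above all NR cells. The heterochromatin protein gene Cbx5 and the tubulin gene Tubb4b had ratios of 2.48 and 1.35, and T-type cell 1 held 70.3% of the Cbx5 level.

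**Figure D3:**
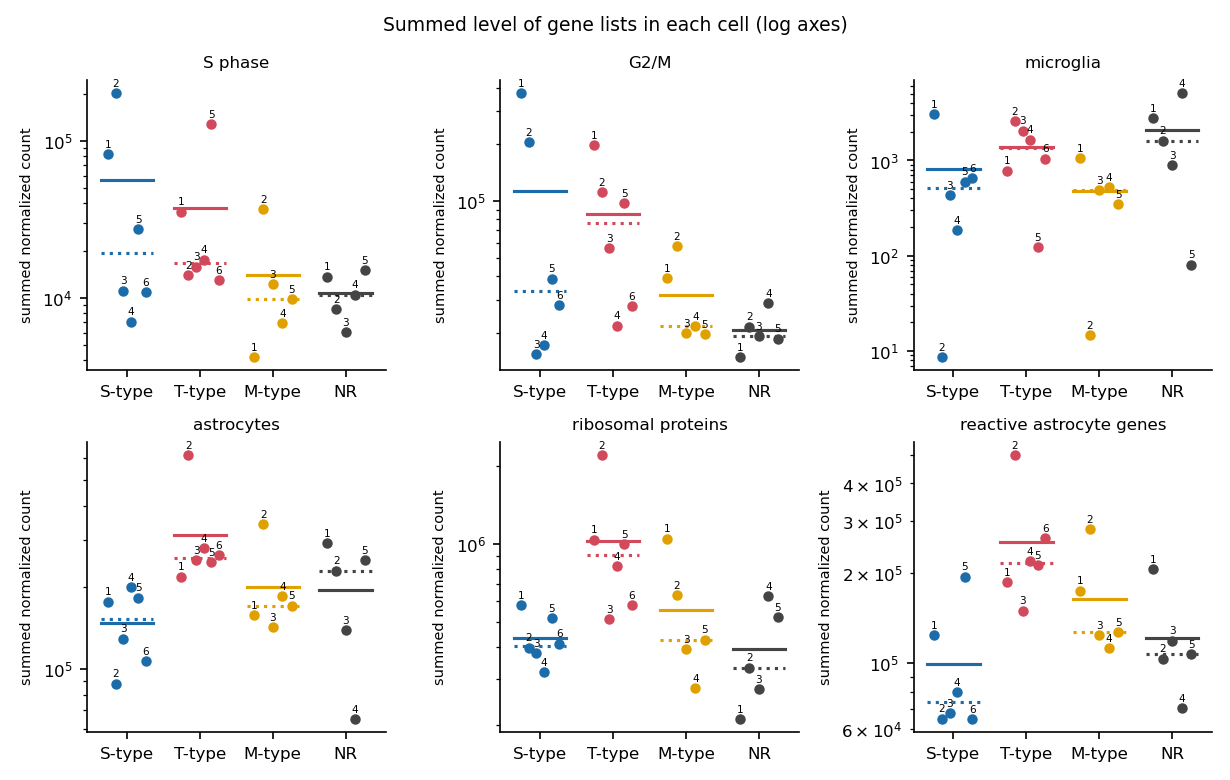
Summed normalised read count (y axis, logarithmic) of 6 gene lists in each cell by class, with the replicate number beside each point, a solid line at the mean and a dotted line at the median. S-type cell 2 is highest for S phase and S-type cell 1 for G2/M, NR cell 4 is highest and NR cell 5 lowest of the NR cells for microglia genes, and T-type cell 2 is highest for the astrocyte, ribosomal protein and reactive astrocyte lists.

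Astrocyte markers, a list that also holds progenitor genes such as Nes, tended to lie lower in responders. Of 19 astrocyte markers 6 (31.6%) were at least 2-fold lower, against 18% of all genes, and 1 (5.26%) at least 2-fold higher, against 28.1%. Their median log2 ratio was -0.59 (-0.27 without NR cell 2). By the median over cells 10 of 19 were 2-fold lower, where 26% of all genes were. Slc1a2, the main glutamate transporter of astrocytes, had 7724, 13834, 1455, 398 and 27943 in NR cells and 2.59, 425 and 16097 in responders, 7 of which lay below every NR cell. Its log2 ratio was -2.21 (-2.92 to -1.40 over the leave-outs), and S-type cells averaged 3610, T-type cells 298 and M-type cells 2871 against 10271 in NR. Ndrg2 had 3650, 17724, 1284, 586 and 25321 in NR cells and a responder median of 1283, and its ratio of -1.80 stayed at or under -1.06. Aldoc, the brain form of aldolase, had a ratio of -1.84, which came down in size to -0.54 without NR cell 5. Gfap, the intermediate filament of astrocytes, had 521, 11046, 2906, 746 and 62.1 in NR cells and 1.3, 247 and 6788 in responders. NR cell 2 held 72.3% of its NR level, and the ratio of -1.63 was -0.10 without that cell. S100b depended on the same cell, since its ratio turned from -2.98 to 1.41 without NR cell 2.

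Not every astrocyte gene lay lower. Nes, an intermediate filament of progenitors, had 1281, 2116, 3317, 378 and 499 in NR cells and 168, 2682 and 24915 in responders (log2 ratio 1.46, 0.93 to 1.97). Vim, its partner filament, had a ratio of 0.69, Fabp7, a fatty acid binding protein of radial glia, 0.44, and the glutamate transporter Slc1a3 0.39. For Slc1a3 the responder median of 8351 was under the NR median, so the mean and the median differed in direction. Aqp4, the water channel, had 9170, 13672, 4318, 2306 and 16619 in NR cells and a responder median of 2833, with a ratio of -0.60 (-0.87 to -0.28), so it lay lower by mean and median. The summed astrocyte level overlapped widely, with 64954 to 291656 in NR cells and 87937 to 615621 in responders.

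**Figure D4:**
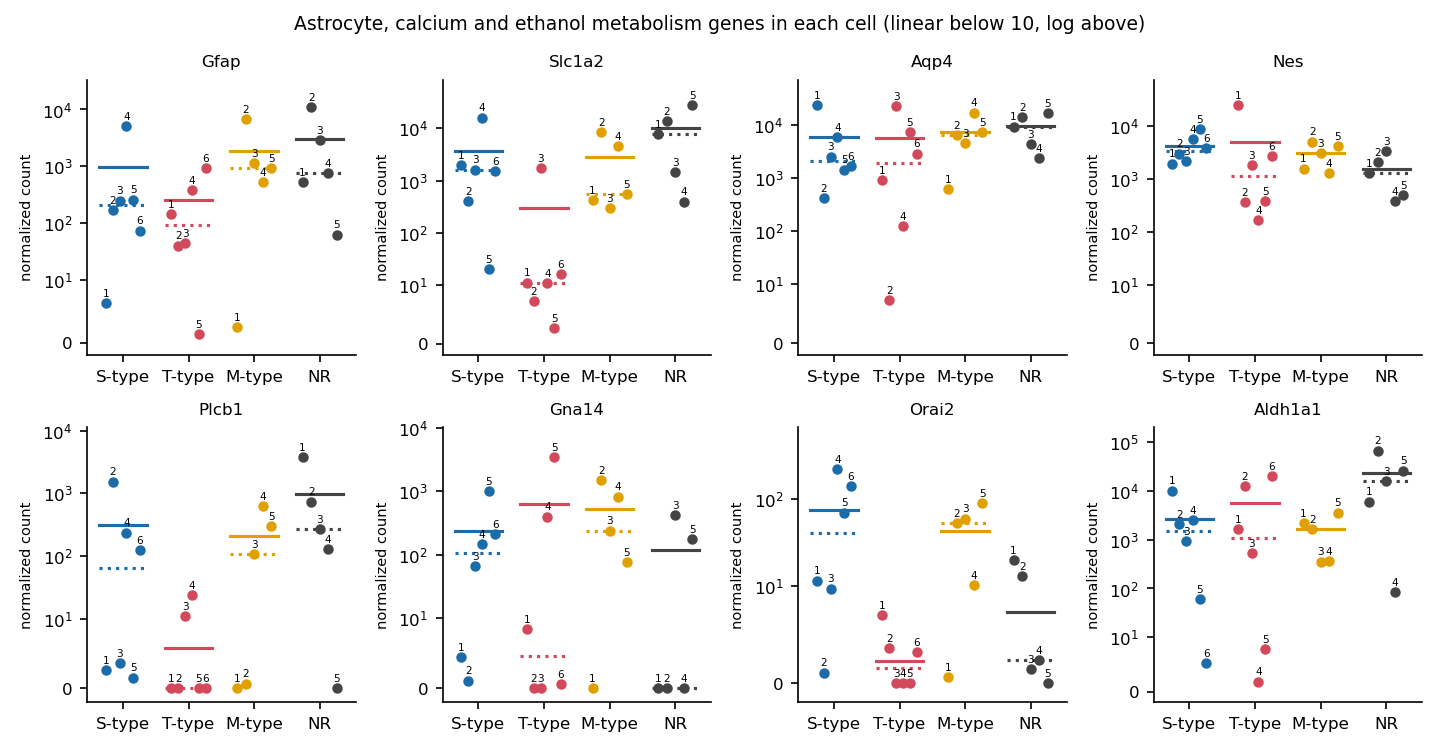
Normalised read count (y axis, linear below 10 and logarithmic above) of 8 genes in each cell by class, with the replicate number beside each point, a solid line at the mean and a dotted line at the median. Slc1a2 is low in all T-type cells but cell 3, Nes has a higher mean in each responding class than in NR, and Aldh1a1 is below 100 in NR cell 4 while the other NR cells are at 6015 to 66894.

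Microglia genes moved with the comparison as well. All 15 kept markers were lower in responders, where 42.9% of all genes were, and 13 (86.7%) at least 2-fold, against 18%. Their median log2 ratio was -3.67 (-4.73 to -2.52 over the leave-outs). S-type cells alone gave -6.21, T-type cells -2.25 and M-type cells -6.09. The summed level lay between 80.7 and 5081 in NR cells and between 8.67 and 3041 in responders, which overlapped, and 2 responders were below the lowest NR cell. In no NR cell did these markers take more than 0.0451% of the reads. Of the defining markers Aif1 and Tmem119 were read in 1 NR cell and P2ry12 in none. The fractalkine receptor Cx3cr1 had 82.6, 217, 0, 175.8 and 0 in NR cells and at most 40.8 in a responder. The leucocyte phosphatase Ptprc had 311 in NR cell 1 and under 1 in the others, and without NR cell 1 its ratio turned from -6.43 to 0.96. Tyrobp, C1qa and Cd68 were highest in NR cell 4, with 209, 104 and 156.1, and the responder median was 0 for each. Laptm5 and Mpeg1 had ratios of -0.55 and -2.23. What part microglial RNA had in any other gene's difference was not tested.

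Markers of other cell types showed no common direction, beside 28.1% of all genes 2-fold higher and 18% lower. Of 7 kept genes of the oligodendrocyte lineage 3 were 2-fold higher and 1 lower. Among them the transcription factor Olig1 had 4586, 2778, 2183, 4184 and 6901 in NR cells and 3.25, 6916 and 51305 in responders, with 9 responders above all NR cells and a log2 ratio of 1.32. Olig2 had a ratio of 1.1 and the growth factor receptor Pdgfra of -0.90, while Sox10, Gpr17, Ermn and Opalin had no read in any cell. The ratio of Pdgfra was -2.95 without M-type cell 2, which held 77.3% of its responder level, and turned to 0.36 without NR cell 1. Of 8 genes of mural cells and fibroblasts 4 were 2-fold higher and 2 lower, and the median of 0.43 was -0.31 without S-type cell 5. The smooth muscle actin gene Acta2 had 132, 7630, 3338, 16193 and 203 in NR cells and 230, 15371 and 103133 in responders (log2 ratio 2.12, 1.79 to 3.08), while Tagln and the collagen gene Col1a2 had ratios of 1.02 and -0.39, whereas Rgs5 and Myh11 had no read. Of 9 neuronal genes 5 were 2-fold higher and 3 lower, the median of 1.02 became negative without S-type cell 2, T-type cell 1 or T-type cell 2, and it is the value of Tubb3, whose median over cells was lower in responders. Stmn2 and Map2, which act on microtubules, had ratios of 1.27 and -0.47. Of 11 endothelial genes only Kdr and Flt1 were kept, at 4.32 and 0.40. T-type cell 5 held 82.9% of the Kdr level, and without it the ratio was 1.86. That of Flt1 turned to -1.38 without S-type cell 2 and was 7.25 without NR cell 5. Cldn5, Cdh5 and Tie1 had no read.

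The genes that make and shape a calcium signal were mixed in direction. Kept were 20 genes for Gq proteins, phospholipase C and InsP3 or ryanodine receptors. Of these 7 (35%) were 2-fold higher and 6 (30%) lower, against 28.1% and 18% of all genes. Their median log2 ratio of 0.06 lay between -0.58 without T-type cell 3 and 0.73 without NR cell 1. Gnaq, the Gq subunit itself, had 3264, 2028, 9172, 6903 and 5203 in NR cells and 2917, 5602 and 59121 in responders (log2 ratio 0.90), and the medians over cells were nearly equal. Gna14, a related subunit, was read in 14 responders and 2 NR cells, with 0, 0, 424, 0 and 176.1 in NR cells and 76 as the responder median. Its ratio was 1.95 (1.22 to 3.40). Plcb1, a phospholipase C that Gq activates, had 3769, 737, 269.7, 129 and 0 in NR cells and a responder median of 3.65. The ratio of -2.49 came down in size to -0.70 without NR cell 1, which held 76.8% of the NR level. Plcb4 lay alike, with -2.31 and 68.4% of the level in NR cell 1. Itpr1, an InsP3 receptor, had 2984, 1453, 1926, 1752 and 5928 in NR cells and 3.63, 1376 and 4824 in responders. Its ratio was -0.95 (-1.18 to -0.48), 9 responders lay below every NR cell, and the T-type level of 654 was the lowest of the classes.

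Of 14 genes for store-operated entry and TRP channels 2 (14.3%) were 2-fold higher and 1 (7.14%) lower (median 0.31). The shares of all genes were 28.1% and 18%. Orai2, a subunit of the store-operated channel, had 20, 13, 1.44, 2.39 and 0 in NR cells and a responder median of 9.75, with 6 responders above all NR cells. Its ratio was 2.44 (1.96 to 3.25), yet the T-type level of 2.31 was under the NR level of 7.38, whereas S-type cells averaged 75.7 and M-type cells 42.6. Trpm7 and Pkd2, cation channels with many reads, had ratios of 0.52 and 0.58, and Tmem66 (Saraf), which slows store-operated entry, one of 0.08. Of 17 genes for calcium pumps, exchangers and mitochondrial uptake 1 (5.88%) was 2-fold higher and 5 (29.4%) lower (median -0.30). Their summed level was below that of every NR cell in 10 responders. Ccdc109b, a paralogue of the pore of the mitochondrial calcium uniporter (current name Mcub), had a ratio of -2.40, and NR cell 4 held 74.2% of the NR level. Atp2a2, the pump that refills the endoplasmic reticulum, had 8004, 7408, 6722, 5027 and 14612 in NR cells, and 11 of 17 responders lay below all of them. Its mean levels differed by only -0.56, since T-type cell 1 had 27636. Atp2b4, a pump of the plasma membrane, had a ratio of 1.33 (1.02 to 1.78), whereas its relative Atp2b1 had -0.61 and the mitochondrial outer membrane channel Vdac2 -0.22.

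Voltage-gated calcium channel subunits had a median of -0.75 over 12 kept genes. Of them 2 (16.7%) were 2-fold higher and 6 (50%) lower, against 28.1% and 18% of all genes. By the median over cells 7 were 2-fold lower, where 26% of all genes were. Without NR cell 5 the median of the list was -0.28. Cacnb2 had 422, 1622, 244, 285 and 0 in NR cells and 0, 26.7 and 407 in responders (log2 ratio -3.19, -3.90 to -2.08). Cacna2d1 had 947, 95.9, 934, 409 and 539.5 in NR cells and a responder median of 170.4 (-1.05). Cacnb4 had a ratio of -0.45 that changed sign without NR cell 3. Of 24 kept receptors for ATP, adenosine, glutamate and GABA 8 (33.3%) were 2-fold higher and 5 (20.8%) lower, near the shares of all genes. Their median of 0.29 was -0.18 without S-type cell 6. The adenosine receptor Adora1 had 2656, 1575, 1605, 565 and 591 in NR cells and 1.28, 483 and 3802 in responders, 10 of which lay below every NR cell (-1.07). P2rx7, a channel opened by ATP, had 487, 286, 121, 0 and 3068 in NR cells and a responder median of 1.82. Its ratio of -2.63 was -0.81 without NR cell 5. The AMPA receptor subunits Gria2 and Gria3 had ratios of 0.53 and 0.64. Of the connexins, Gja1, the main gap junction protein of astrocytes, had a ratio of -0.59 and Gjc1 of 2.77.

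Of 11 kept genes of ethanol and acetaldehyde metabolism 1 (9.09%) was 2-fold higher and 2 (18.2%) lower, against 28.1% and 18% of all genes. Their median was -0.16. Aldh1a1, a cytosolic aldehyde dehydrogenase that also makes retinoic acid, had 6015, 66894, 15642, 83.7 and 25967 in NR cells and 1.82, 1620 and 19748 in responders. The log2 ratio was -2.75 (-3.26 to -1.80), with 2617 as the mean of S-type, 5716 of T-type and 1618 of M-type cells against 22920 in NR. The arms overlapped, with NR cell 4 low and T-type cell 6 above NR cells 1 and 3 as well. Acss2, which makes acetyl-CoA from acetate, had 1292, 1081, 819.8, 1139 and 3863 in NR cells and a responder median of 578, and 10 responders lay below every NR cell (ratio -1.31). Adh5, the class III alcohol dehydrogenase, and Aldh7a1 had ratios of 0.24 and -0.16. Aldh2, the mitochondrial enzyme that clears acetaldehyde, had a ratio of -0.51, while Cyp2e1 was read in fewer than 5 cells and Adh1 in none.

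**Figure D5:**
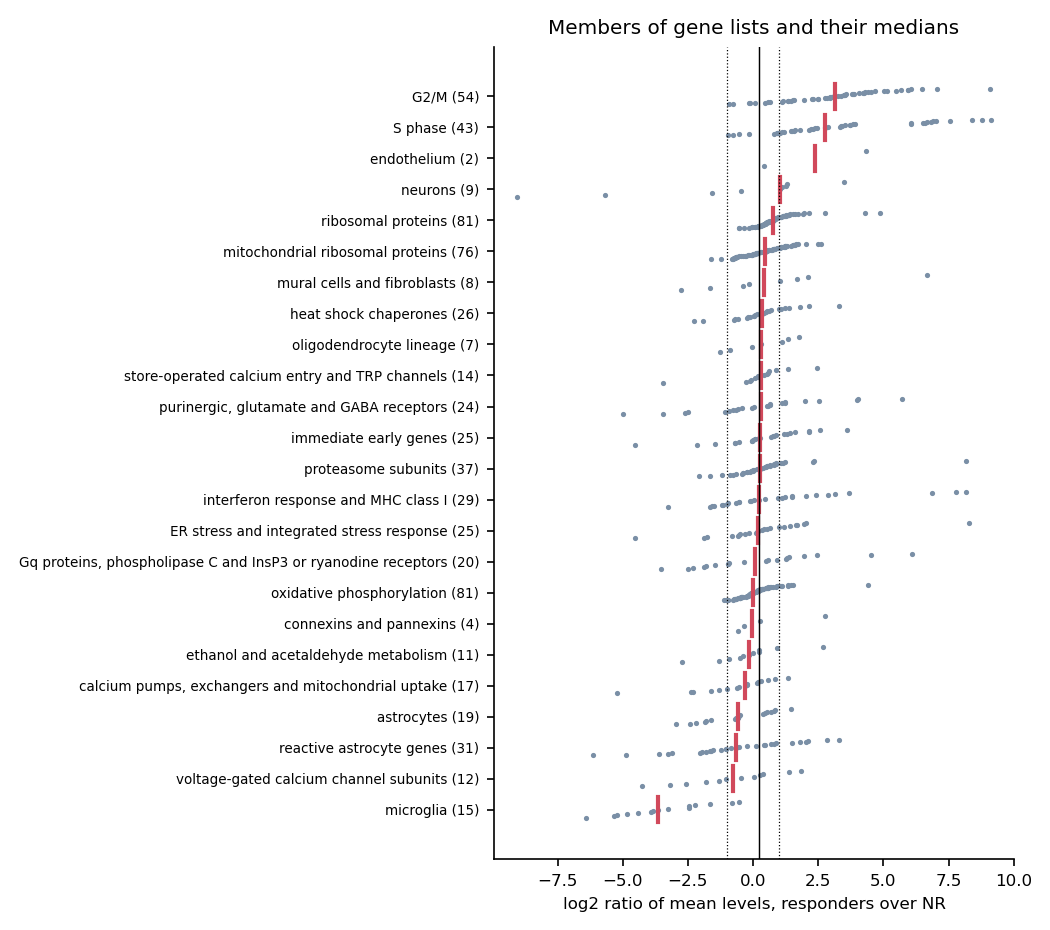
The log2 ratio of mean levels, responders over NR cells (x axis), of each kept member of 24 gene lists (grey points, number of members in brackets) with the median of the list (red bar). The black line marks the median of all genes at 0.22 and the dotted lines mark 2-fold. The G2/M and S phase lists have medians of 3.13 and 2.76, and the microglia list has -3.67.

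Immediate early genes, which neural cells switch on within minutes of a calcium signal, had a median of 0.28 over 25 kept genes, close to that of all genes, and -0.04 without NR cell 5. Of these 8 (32%) were 2-fold higher and 3 (12%) lower, against 28.1% and 18% of all genes. Egr1, a transcription factor, had 565, 1277, 750.0, 1.2 and 0.927 in NR cells and 1.94, 2145 and 54087 in responders, 10 of which exceeded every NR cell. Its ratio was 3.59 (2.66 to 4.25), and T-type cells averaged 10744, M-type cells 4592 and S-type cells 3170 against 519 in NR. The T-type mean rested mostly on T-type cell 2 at 54087, without which the ratio was 2.66. Nr4a1, an orphan nuclear receptor, had 268, 81.7, 1.44, 0 and 0 in NR cells and a responder median of 95.5 (ratio 2.13, 1.78 to 3.89). Fos and Jun differed little, at 0.28 and -0.03, and Klf6 had a level of 2379 in either arm, and Ier3 had a ratio of 0.81. Since the time of collection was not used, these values cannot be tied to a time after exposure.

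Of 26 heat shock chaperones 7 (26.9%) were 2-fold higher, near the 28.1% of all genes, and 2 were 2-fold lower (median 0.35). Hsp90aa1 had 6899, 11603, 12946, 16610 and 28166 in NR cells and 10323, 22543 and 169591 in responders (ratio 1.21, 0.82 to 1.55). Hsp90ab1 had a ratio of 1.07 with levels of 12816, 71632 and 13174 in S-, T- and M-type against 15999 in NR, and it was -0.30 without the T-type cells. Hspa8 had a ratio of 0.41. Genes of the endoplasmic reticulum stress response were balanced, with 7 of 25 (28%) 2-fold higher and 3 lower (median 0.19), and the chaperones Hspa5, Canx and Hsp90b1 had ratios of -0.58, 0.35 and 0.15. Interferon response and MHC class I genes went in either direction, with 12 of 29 (41.4%) 2-fold higher and 7 (24.1%) lower (median 0.24). The shares of all genes were 28.1% and 18%. Ifit2 had a ratio of -0.11, Gbp3 of -0.53 and B2m, the light chain of MHC class I, of 0.24. By the median over cells 12 of the 29 were 2-fold lower and 4 higher, where 26% and 15.6% of all genes were. Here too the mean and the median differed in balance.

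Genes known to mark reactive astrocytes lay lower on balance, with a median of -0.66 (-0.19 without NR cell 2). Of 31 genes 14 (45.2%) were 2-fold lower, against 18% of all genes, and 6 (19.4%) higher, against 28.1%. By mean and median alike 11 (35.5%) were lower and 2 (6.45%) higher, against 11.3% and 10.1% of all genes. Ggta1, a glycosyltransferase, had 286, 5883, 146, 2758 and 7577 in NR cells and 0, 43.5 and 1350 in responders, 9 of which lay below every NR cell, and its ratio of -3.12 stayed between -3.42 and -2.56. Serpina3n, a secreted protease inhibitor, had 3014, 840.0, 2.16, 215 and 0 in NR cells and a responder median of 1.3 (ratio -3.62). In the other direction Emp1, a membrane protein, had 773, 1272, 213, 282 and 236 in NR cells and 5.42, 1048 and 12101 in responders (ratio 2.12, 1.70 to 2.68). S100a10, a partner of annexin A2, had a ratio of 1.51. Tm4sf1 and Cd44, which have many reads, stood at 0.79 and -0.24. The list shares Gfap and Vim with the astrocyte markers, and Srgn is also made by blood-derived cells.

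Ribosomal protein genes lay higher in responders by a small margin. Of 81 genes 75 (92.6%) were higher, where 57.1% of all genes were, and none was 2-fold lower. The 23 genes at least 2-fold higher (28.4%) were close to the share of all genes (28.1%), and the median was 0.75 (0.52 to 0.97 over the leave-outs). T-type cells alone gave a median of 1.26, M-type cells 0.45 and S-type cells 0.08. Rpl7 had 21597, 29452, 17758, 38834 and 15505 in NR cells and 23199, 42267 and 65560 in responders, with 9 above every NR cell (ratio 0.71). Rps4x and Rpl4 had ratios of 1.34 and 0.84. As a share of the reads of a cell the list took 1.74% to 5.57% in NR cells and 2.58% to 8.09% in responders. Mitochondrial ribosomal proteins had a median of 0.47, and 20 of 76 (26.3%) were 2-fold higher, near the 28.1% of all genes, with 2 lower. Oxidative phosphorylation genes had a median of 0.01 (-0.13 without T-type cell 2), with 7 of 81 2-fold higher and 2 lower. Among these, the ATP synthase genes Atp5g3, Atp5b and Atp5a1 had ratios of 0.58, -0.19 and 0.77, and T-type cell 2 held 66.8% of the Atp5a1 level, whose ratio turned to -0.73 without that cell. Proteasome subunits had a median of 0.25, with 6 of 37 2-fold higher and 3 lower.

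The study had picked 26 genes as higher in each responding class than in NR on these same cells, so their direction here follows from that choice. All 26 were 2-fold higher by the mean, and 22 had no NR read, which makes their ratios lower bounds. With those genes at their bound the median was 6.63. By the median over cells, however, only 5 of the 26 were 2-fold higher. Rfc3, a subunit of the loader of the replication clamp, was the member with reads in the most cells. It had 4.25, 22.7, 25.2, 7.18 and 0 in NR cells and 8.45, 338 and 2954 in responders, 16 of which exceeded every NR cell (ratio 5.58, 5.14 to 6.06). Cenpl, a kinetochore protein, had at most 6.07 in NR cells and a responder median of 136, with 14 responders above all NR cells. Ccdc103, a factor for the motor arms of cilia, was read in 8 responders and no NR cell, and S-type cell 1 held 81.5% of its level. Gm20324, with a read in 11 responders, is described above.

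Xist, the RNA of the inactive X chromosome, is among these 26 genes. It had 0, 0, 1.44, 0.598 and 0 in NR cells and 0, 12.6 and 11941 in responders. The Y-linked Ddx3y was read in all 5 NR cells, with 3507, 1040, 1407, 656 and 141, and in 12 responders. Of all 17 responders, those without a read included, 9 lay below every NR cell, while M-type cell 2 had 4605, above them all. Eif2s3y and Uty were also read in all 5 NR cells and in 10 responders each, and Kdm5d in 3 NR cells and 6 responders. Tsix, the antisense partner of Xist, was read in 12 responders and 1 NR cell, and its reads cannot be told from those of Xist where counting ignores the strand. Thus sex-linked reads differed between the arms, and since the labels give neither pup nor sex, a difference between arms in any gene cannot be told apart from a difference between pups.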

How the data were processed

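RNA was measured in 22 single astrocytes, 17 of them responders and 5 NR. The authors amplified the RNA of each cell in 2 rounds, made stranded libraries, aligned the reads to GRCm38 with STAR, and deposited raw counts of exonic reads per gene from VERSE, a form of HTSeq, without normalization. Versions and the use of strand in counting are not given in the sources used here. The counts carry no molecular identifiers, so the 95% intervals (exact Clopper-Pearson limits of how a gene's reads divide between arms) cover counting error alone.

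Each cell was scaled by its median-of-ratios size factor, taken over 3670 genes read in all 22 cells. An arm without a read was set to 3 reads over its summed size factors (0.138 in responders, 0.397 in NR). A gene entered when at least 5 cells had a read of it. No p-value was computed, because each arm counted as 1 sample. Analyses used Python 3.11.15, NumPy 2.4.6, pandas 2.3.3, SciPy 1.17.1, matplotlib 3.10.9 and, for TMM factors, edgeR 4.0.16 under R 4.3.3. Each cell had been drawn into its own pipette, and no doublet caller was run. The size factors and the ratios of mean levels were first tested on simulated counts in which the changed genes were known. There all cells of an arm shared 1 expected level after scaling, so genes whose level rests on 1 cell were not covered. Thinning was checked on the deposited counts, and the other steps were not tested in this way.

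Named by rule were genes with a mean level of 10 or more whose arms did not overlap (up to 6 per direction), the 6 per direction with the largest difference of medians over cells, the 4 per direction with the largest difference in the share of cells with a read, up to 3 members of each of 26 lists by reads, 6 of the genes chosen by the study and all sex-linked genes. A few members of the lists are not reported here. Other list members were named after their values were seen, as were the promoters and motifs and the requirement of 2-fold by mean and median. The comparison, the members and the lists were chosen with earlier results of these data known. Alternatives were mean CPM, TMM factors, class means, medians or log means over cells, a pseudocount, other filters, a 4-fold limit, thinned cells, 5 reads for detection, and leaving out classes or cells. Leaving out T-type cells 3 and 4 (the smallest libraries) or the 4 cells with the highest S phase or G2/M sums was chosen after seeing the data. Promoters came from RefSeq (GRCm38.p6) and positions from GENCODE vM21. The calcium recordings were not used here.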

Additional observations from a re-analysis of the deposited data

Results flagged for a closer look

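In each class the reads and the genes read per cell and the summed level of each list, as log2 of the summed normalised read count plus 1, were tested for a single cell far from the others by Dixon's gap relative to the range, and 7 of 104 such groups passed its 95% limit, where chance passes about 1 in 20. T-type cell 2 stood apart in 3 of them. Its astrocyte markers summed to 19.23 (class median 17.97) and its Gq, phospholipase C and InsP3 receptor genes to 16.19 (class median 13.23), both high, while its voltage-gated calcium channel genes summed to 5.07 (class median 10.07), which was low. The high sums were mostly 1 gene each. Vim had 395460 normalised reads of 615621, and Gnaq 59121 of 74871. Slc1a3 was at 31678, whereas Gfap, Slc1a2, Aqp4 and Itpr1 were at 39.9, 7.25, 7.25 and 3.63. T-type cell 2 was also the cell with the fewest genes read, at 6319, and with a size factor of 0.276. The part of this low size factor in these levels was not tested.

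S-type cell 2, one of the cells high for S phase and G2/M, was low for the oligodendrocyte lineage at 9.04 against a class median of 12.73. S-type cell 6 was high for receptors of ATP, adenosine, glutamate and GABA at 14.17 against 12.92. M-type cell 2 was low for microglia genes at 3.97 against 8.93, and M-type cell 4 was low for genes of mural cells and fibroblasts at 10.11 against 14.23. No NR cell stood apart in this way over the lists tested.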

How the results depend on the processing

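The median log2 ratio of all genes, 0.22 as reported, was 0.05 by mean CPM, -0.07 by the median over cells and -0.26 by the mean of logs, and it lay between 0.16 and 0.31 when any 1 cell was left out. The count of genes 2-fold higher (3579) was 1982 by the median over cells, 1875 by the mean of logs, 1792 at a 4-fold limit and 1282 by mean and median together. The count of genes 2-fold lower (2292) was 3596 by the mean of logs, 4789 with every gene read in any cell, 902 at 4-fold and 1443 by mean and median together. Leaving out 1 cell gave 3291 to 4154 higher and 2029 to 2405 lower genes.

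Genes with every responder above every NR cell numbered 4 without T-type and 2 without M-type cells. They numbered 1 without the 4 cells with the highest S phase or G2/M sums, and 0 to 1 over the single leave-outs. Genes with every responder below numbered 7 without S-type, 4 without T-type and 10 without M-type cells, 1 at equal depth and 2 to 8 over the leave-outs (5 without NR cell 1, 4 without NR cell 2 and 8 without NR cell 4 or 5). Genes read in at least 16 responders and at most 1 NR cell (1 as reported, with as many cells allowed to lack a read when a class was left out) numbered 2 without S-type, 7 without T-type, 0 when detection took 5 reads, 2 without T-type cells 3 and 4, the smallest libraries, 2 without the 4 cells and 1 to 8 over the leave-outs, with 8 without NR cell 2. Genes read in 5 NR cells and at most 3 responders numbered 31, 5 and 19 without the S-, T- and M-type cells, 3 with 5 reads, 3 without the 4 cells and 1 to 19 over the leave-outs, with 19 without NR cell 5 and 12 without NR cell 1.

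The neuronal median turned to -0.63 by the median over cells, -0.98 by the mean of logs, -0.93 without a filter, -0.0066 without S-type, -0.41 without T-type and -0.23 without the 4 cells, with -0.61 to 1.14 over the leave-outs. The endothelial median, of 2 genes, turned to -0.019 by the median over cells, -0.37 without S-type and -0.28 without the 4 cells, with 1.18 to 5.63 over the leave-outs. The 26 genes of the study had medians of 0 by the median over cells, 1.94 by the mean of logs and 4.85 at equal depth, and the microglia median was -6.64 without T-type cells. Sex-linked genes ranged from -1.47 to 1.27 over the leave-outs. Tubb3 turned to -4.34 by the median over cells, -0.98 by the mean of logs and ranged from -0.25 without T-type cell 1 to 1.90 over the leave-outs. Stmn2 turned to -1.28 by the mean of logs and -0.0066 without S-type cells, and Hsp90ab1 to -0.30 without T-type cells. Over the leave-outs Ptprc ranged from -7.56 to 0.96 (without NR cell 1), S100b from -4.00 to 1.41 and Kdm5d from -3.94 to 3.22 (both without NR cell 2), and Uty from -2.43 to 2.98 (without NR cell 4). The causes of these changes were not tested. Over the settings other than single leave-outs 403 list medians moved by less than the spread between cells, 4 moved by more, and 9 of at least 2-fold changed sign. A sign change of a smaller median was not counted as a change of direction. An example is the interferon response and MHC class I list, from 0.24 to -0.68 by the median over cells. A move within the spread between cells could still be large. By the median over cells the S phase median went from 2.76 to 0.64 and the G2/M median from 3.13 to 0.99, and both counted as moves within the spread. No paired analysis was possible because the replicate numbers follow accession order and no test was run. With 5 NR cells 1 of them often set the level of a gene, and a gene at 0 in NR cells is known only to lie under 0.397 normalised reads.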
